A study of Mus musculus with 2 samples.

Results

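The hairpins described here are late-numbered and Gm-named miRNA genes that received counts in embryonic mouse limb. They are genes whose symbol is Mir followed by a number of 1000 or more, or Gm followed by digits only, with 5 or more sense-strand counts summed over both libraries. The rule leaves out Mir3074-1, a stretch of chromosome 12 and a stretch of chromosome 2. It selects 179 of the 1973 miRNA genes listed in the count tables, 163 of them late-numbered and 16 Gm-named. They are 13.2% of the 1358 genes of this naming that remain. Of the others, 1017 had 0 sense counts and 162 had 1 to 4. The members were thus chosen by their summed sense counts, so their levels are given as a description with no test. Host gene, GC content and shared sequence did not enter the rule, though shared sequence can affect which reads are counted.

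Canonical miRNAs are cut from a hairpin in a longer transcript, first by the Microprocessor, formed by Drosha and its RNA-binding partner Dgcr8, and then by Dicer, and the seed near the 5′ end of the mature strand pairs with target messenger RNAs. Mirtrons are a known exception, in which splicing rather than Drosha sets an end of the hairpin at the edge of a short intron. Other hairpins were named from small RNA reads that map to transfer RNA genes, messenger RNA exons or repeated sequence, and many Gm names carry gene models predicted from sequence likeness.

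The study sequenced small RNA of limb tissue from embryos of mouse strain B6NCrl at embryonic day 11.5. The series holds 1 group of 2 libraries. Replicate 1 was pooled from 109 embryos and replicate 2 from 88, of both sexes and described as healthy, with no transgene or treatment named. Both carry 1 donor identifier in the labels, so SDs measure only the spread between these 2 libraries. The p-values below set the difference between these libraries against counting error and measure no spread among samples. No conditions can be compared.

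Some sequences show what kinds of hairpin the group holds. Mature sequences and the transfer RNA gene come from RefSeq (GRCm38.p6) and hairpins from GENCODE M21 transcripts, all on mm10. The most abundant member, Mir1983 (chr13:21896918-21897049, minus strand, 132 nt), spans a 94-nt isoleucine transfer RNA gene, n-TItat14, shown in capitals within the hairpin. The mature 21-nt sequence has 13 bases inside that gene, in capitals in its line, and 8 beyond its 3′ end.
Mir1983 hairpin: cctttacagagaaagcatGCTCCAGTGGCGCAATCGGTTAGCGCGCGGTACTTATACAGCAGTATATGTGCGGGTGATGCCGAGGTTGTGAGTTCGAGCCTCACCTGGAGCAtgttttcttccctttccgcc
miR-1983 mature: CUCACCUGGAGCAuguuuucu

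Mir3102, Mir1981 and Mir6944 are the most abundant of 9 members that fill a whole intron of a same-strand gene. Their hairpins are printed from the first to the last base of the intron, with the splice-site dinucleotides in capitals.
Mir3102 in Arhgef17, chr7:100882306-100882409, minus strand: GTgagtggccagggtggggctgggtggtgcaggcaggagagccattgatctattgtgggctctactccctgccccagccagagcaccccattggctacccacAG
Mir1981 in Marc2, chr1:184822407-184822488, minus strand: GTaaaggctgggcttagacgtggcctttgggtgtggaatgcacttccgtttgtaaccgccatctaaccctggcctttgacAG
Mir6944 in Dbn1, chr13:55477681-55477776, minus strand: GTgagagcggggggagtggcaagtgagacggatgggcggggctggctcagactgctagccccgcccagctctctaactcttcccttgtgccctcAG

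The Gm23935 family is 6 Gm-named hairpins of 56 or 57 nt, all of them members, and it is shown because 3 of them have the same letters. Capitals mark bases that differ from Gm23935, and Gm25911 also lacks 1 base.
Gm23935, chr16:11144125-11144181, plus strand: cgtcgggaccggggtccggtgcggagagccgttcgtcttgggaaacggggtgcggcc
Gm24245, chr4:139338304-139338360, plus strand: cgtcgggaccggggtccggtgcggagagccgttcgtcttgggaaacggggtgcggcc
Gm24270, chr9:56223715-56223771, minus strand: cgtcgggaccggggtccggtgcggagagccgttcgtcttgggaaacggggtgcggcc
Gm24187, chr13:9834469-9834525, minus strand: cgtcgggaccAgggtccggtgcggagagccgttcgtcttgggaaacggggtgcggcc
Gm25911, chr1:167340369-167340424, minus strand: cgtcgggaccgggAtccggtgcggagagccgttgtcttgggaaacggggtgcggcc
Gm23388, chr8:85112012-85112068, minus strand: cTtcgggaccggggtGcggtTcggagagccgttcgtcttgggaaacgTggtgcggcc

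The mature strands of other members on which the results turn are given with their seed, bases 2 to 8, in capitals. Mir1306 was the most abundant exonic member, Mir3099 and Mir1955 the most abundant inside long introns with similar counts in both libraries, and Mir6236, Mir6240, Mir6538 and Mir3095 differed between the libraries.
miR-1306-5p: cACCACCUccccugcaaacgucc
miR-1306-3p: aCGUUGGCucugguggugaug
miR-3099-3p: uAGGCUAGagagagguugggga
miR-1955-5p: aGUCCCAGgaugcacugcagcuuuu
miR-6236: gCCGUCGCcggcagucagg
miR-6240: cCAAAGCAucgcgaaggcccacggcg
miR-6538: cGCGGGCUccggggcggcg
miR-3095-3p: uGGACACUggagagagagcuuuu

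The tables hold 6661559 reads in replicate 1 and 7420829 in replicate 2, of which 2953085 and 3459176 were sense counts of miRNA genes. Levels are in CPM, the count of a gene scaled to a common total of 1000000 sense counts per library. With 0 counts a gene could still have a level up to that of 3 counts, 1.02 CPM in replicate 1 or 0.867 CPM in replicate 2; such limits, and the Wilson intervals below, cover counting error only. A separate line of each table holds multimapping reads, 24.7% and 23.4% of all reads; which genes they belong to is not recorded. Of the markers chosen to check the tissue, Mir196b and Mir10b, encoded in the Hox clusters, had 70319 and 35910 CPM on average, and liver Mir122 averaged 18.2 CPM. The other limb mesenchyme markers, Mir214, Mir10a, Mir140 and Mir199b, averaged 39072, 16461, 13764 and 1514 CPM. Of the neural markers, Mir124a-1 had 0 counts in both libraries and Mir137 had 598 and 756 counts, a mean of 211 CPM. The 0 covers the Mir124a-1 gene only and includes no multimapping reads. Muscle Mir206 averaged 540.2 CPM, and blood Mir451a, Mir223 and Mir144 averaged 391, 274 and 33.6 CPM. Markers of other cell types were higher, with endothelial Mir126a at 24194 CPM and epithelial Mir205, Mir203 and Mir200b at 5522, 3541 and 780 CPM. In such bulk tissue, fewer cells of a type and less RNA per cell cannot be told apart.

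Together the members took a small share of the sense counts, and Mir1983 took most of that share. They held 25515 counts in replicate 1, or 0.864% of sense counts (Wilson 95% interval 0.854% to 0.875%), and 28306 in replicate 2, or 0.818% (0.809% to 0.828%). The mean was 0.841% ± 0.032 (SD, n = 2). The 255 genes named Mir with a number under 1000 (with the let-7 genes), under the same minimum and exclusions, are called early-numbered below and held 94.2% ± 0.22 (SD, n = 2). Mir1983 alone made up 72.01% of the members' counts. Without it, an alternative added after its level was seen, the share was 0.263% in replicate 1 and 0.211% in replicate 2. The 10 most abundant members made up 88.7% of the members' counts.

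Most of the other members sat near the counting limit. Summed over both libraries, 60 members had 5 to 9 counts, 43 had 10 to 19, 51 had 20 to 99, 21 had from 100 to under 1000 and 4 had 1000 or more. The median member had 2.42 CPM as a mean of the libraries, against 191 CPM for the early-numbered genes; 5 counts alone are 1.69 CPM in replicate 1 or 1.45 CPM in replicate 2. All but 4 members had counts in both libraries. Gm23634 had 0 and 7 counts in replicates 1 and 2, Gm27486 and Mir7213 each had 0 and 5, and Mir7071 had 5 and 0. In all, 36 members reached 10 CPM in both libraries and 6 reached 100 CPM in both.

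At the edge of the rule, 17 hairpins had a sum of exactly 5 counts and 23 others of the same naming had 4. Those just inside were Mir7071, Mir1960, Mir3109, Mir6965, Mir7003, Mir8102, Mir3962, Mir6911, Mir6918, Mir6990, Mir6993, Mir8101, Mir6940, Mir7651, Mir7665, Gm27486 and Mir7213. Those just outside included Mir1264, Mir3108, Mir5131, Mir5620, Mir6898, Mir6970, Mir6996, Mir7005, Mir8092, Gm25732 and Gm26220. Median GC was 58.0% inside and 59.4% outside, 9 of the 17 and 12 of the 23 lay at an intron end, and 2 of the 17 and 3 of the 23 had no host gene.

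Mir1983 stood far above every other member. It had 17744 counts in replicate 1 and 21010 in replicate 2, or 6009 and 6074 CPM, and ranked 35th among all listed genes. Both libraries gave nearly the same level. It was the only one of the 1894 listed hairpins with coordinates to overlap any of the 430 transfer RNA genes in the RefSeq table. Overlap was judged by position only, so other hairpins with sequence like that of a transfer RNA would not be found this way. Its hairpin had 3 predicted loops, whereas 164 of the 179 members (91.6%) had 1. The counts are per hairpin, so reads of the transfer RNA and reads of the annotated mature strand cannot be told apart in them.

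**Figure D1:**
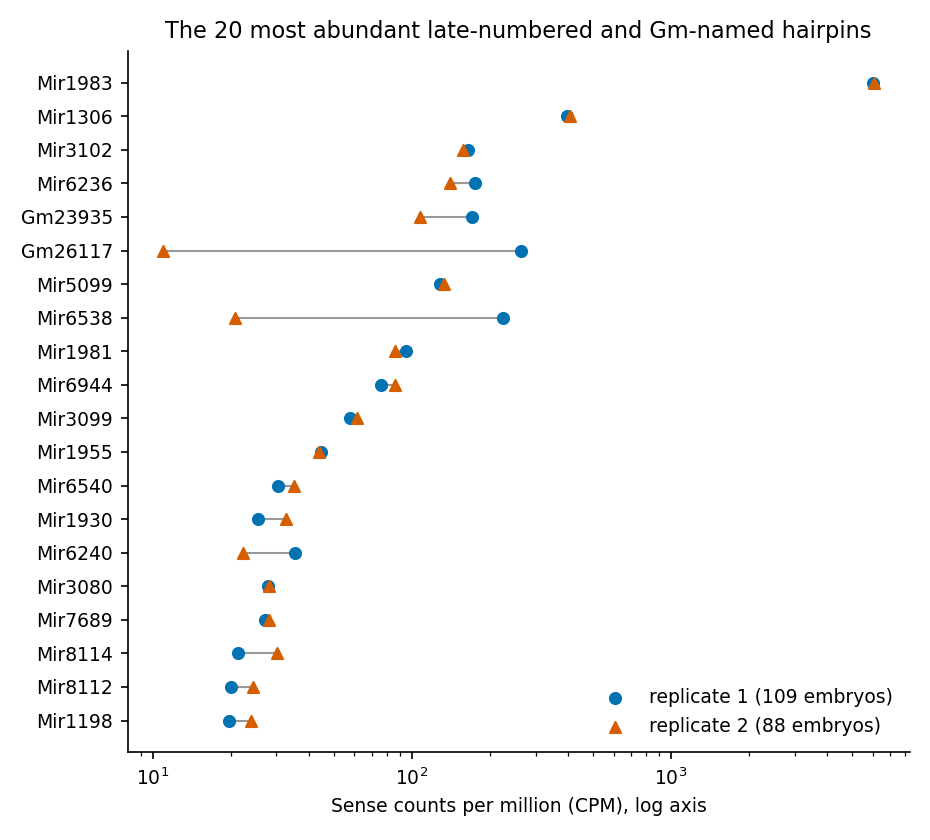
CPM in each library (horizontal log axis) of the 20 most abundant late-numbered and Gm-named hairpins; circles are replicate 1 and triangles replicate 2, joined by a line. Mir1983 lies near 6000 CPM in both libraries, and Gm26117 and Mir6538 have the longest lines, with replicate 1 higher.

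Host genes on the same strand held 152 of the 179 members (84.9%), with 115 in introns and 37 in exons, and 27 had no host. In every set, a hairpin within 5 nt of an intron end of a host transcript was counted as intronic, even where it also overlapped an exon. Of the 255 early-numbered genes, 172 (67.5%) had a same-strand host, and of the 1179 hairpins of the same naming under 5 counts, 530 (45.0%) had one. Gm names made up 790 of the 1358 genes considered but only 16 of the 179 members. Comparisons with hairpins under 5 counts in host, GC, length, folding energy and shared stretches thus also differ in naming. The 152 hosted members lay in 150 different genes, since only Dgcr8 and Ccnf held 2 each. Ccnf, which encodes a cyclin F-box protein, held Mir5134 in an exon, with 7 and 5 counts in replicates 1 and 2, and Mir6965 in an intron, with 3 and 2.

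Exonic members were led by Mir1306, in the coding sequence of Dgcr8, the gene of the Microprocessor's own RNA-binding subunit. Mir1306 (chr16:18284239-18284317, minus strand) had 1172 counts in replicate 1 and 1408 in replicate 2, or 397 and 407 CPM. A second member, Gm24572, lies 232 nt from it in a 5′ UTR exon of Dgcr8 (chr16:18284550-18284637) and had 30 and 13 counts, or 10.2 and 3.76 CPM. Mir1306 was thus higher in both libraries, by 5.98 ± 1.02 on the log2 scale (SD, n = 2), with single values of 5.26 and 6.71. Gm26117, in a 5′ UTR exon of Adgrb1, which encodes an adhesion G protein-coupled receptor, had 779 counts in replicate 1 and 38 in replicate 2 and is taken up with the library comparison. No other exonic member passed 110 summed counts; Mir5113, in the 3′ UTR of Tnrc6b, a gene of the miRNA silencing machinery, had 54 and 56. Of the 37 exonic members, 17 overlapped coding sequence, 14 a 5′ UTR and 10 a 3′ UTR, with some in more than 1 class, and 2 lay in noncoding genes.

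The 9 members that filled a whole intron had a median of 22 summed counts, from 12 to 1032, and 3 of them held most of the counts of the class. Mir3102 fills a 104-base intron of Arhgef17 and had 488 and 544 counts in replicates 1 and 2 (165 and 157 CPM). Mir1981 fills an 82-base intron of Marc2, a mitochondrial reductase gene, and had 280 and 298 counts (94.8 and 86.1 CPM). Mir6944 fills a 96-base intron of Dbn1, the gene of the actin-binding protein drebrin, and had 224 and 298 counts (75.9 and 86.1 CPM). All 3 lay close together in both libraries, and none of the 9 passed the library test. The other 6, Mir6958, Mir1982, Mir7018, Mir7068, Mir7070 and Mir7082, had 12 to 41 summed counts. Of the 9, 8 met both intron ends exactly and 8 ran from GT to AG.

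Another 50 members met an intron at 1 end within 5 nt, 47 of them at its 3′ end. The introns met had a median length of 527 nt, from 66 to 5867 nt, so not all were short. In 44 of the 50 the 3′ ends coincided exactly, and all 44 hairpins ended in AG. Only Mir6936 in Sirt7, Mir6977 in Ptprs and Mir6927 in Mllt6 met the 5′ end. The 50 held 345 counts in replicate 1 and 392 in replicate 2, with a median of 9 summed counts and a range of 5 to 73, which overlaps that of the whole-intron members. Highest among them were Mir7083, in Dock6, with 32 and 41 counts, and Mir3064, in Ddx5, a gene of an RNA helicase that associates with the Microprocessor, with 36 and 31. Intron ends were thus met by 59 of the 115 intronic members (51.3%), by 1 of the 122 early-numbered intronic hairpins (0.820%) and by 146 of the 407 intronic hairpins of the same naming under 5 counts (35.9%).

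**Figure D2:**
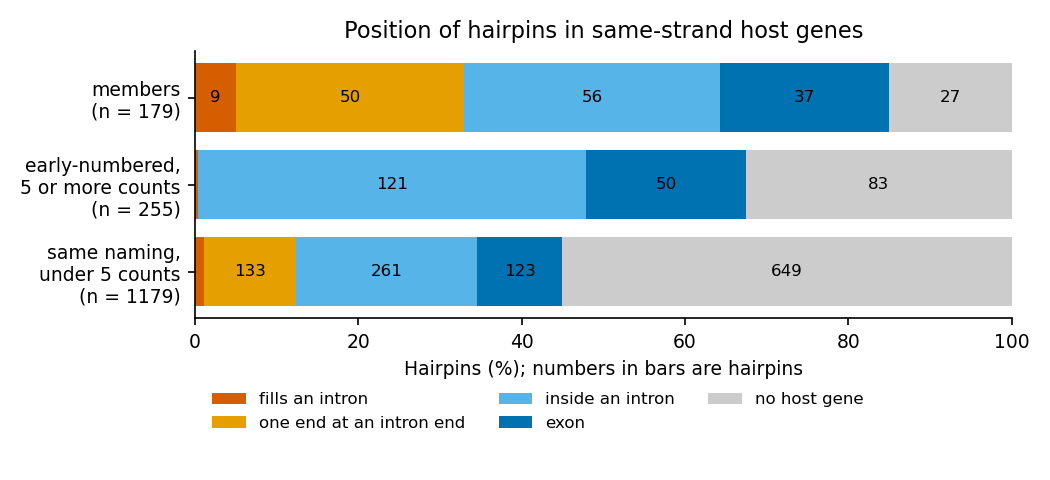
Position of hairpins relative to same-strand host genes, as a percentage of each set (horizontal axis), with the number of hairpins in the bars. Of the members, 9 fill an intron and 50 meet 1 intron end, against 1 and 0 of the 255 early-numbered genes.

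A further 56 members lay inside introns away from the ends, and had a median of 31.5 summed counts. Mir3099, in Usp29, an imprinted gene of the ubiquitin-specific protease family, had 171 and 213 counts in replicates 1 and 2 (57.9 and 61.6 CPM). Mir1955, in Phf21a, which encodes a histone-reading protein, had 132 and 151 counts (44.7 and 43.7 CPM). Mir6540, in Gap43, a gene of axon growth, had 90 and 121 counts (30.5 and 35.0 CPM). The 3 had similar levels in both libraries, and none passed the library test. Mir1930, Mir3080 in Tcf20 and Mir1198 in Gripap1 followed with 141 to 188 summed counts.

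Without a same-strand host, 27 members held 42718 counts in all, of which Mir1983 gave 38754. Mir6236 had 519 counts in replicate 1 and 485 in replicate 2 (176 and 140.2 CPM), and Mir5099 had 378 and 460 (128 and 133 CPM). Mir7689 had 80 and 97 counts, Mir8114 had 63 and 104, and Mir8112 had 59 and 84. Of these, Mir7689 lies opposite Sorcs2, Mir8114 opposite Teddm2 and Mir8112 opposite Smyd1; in all, 10 members had a host on the opposite strand only.

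**Figure D3:**
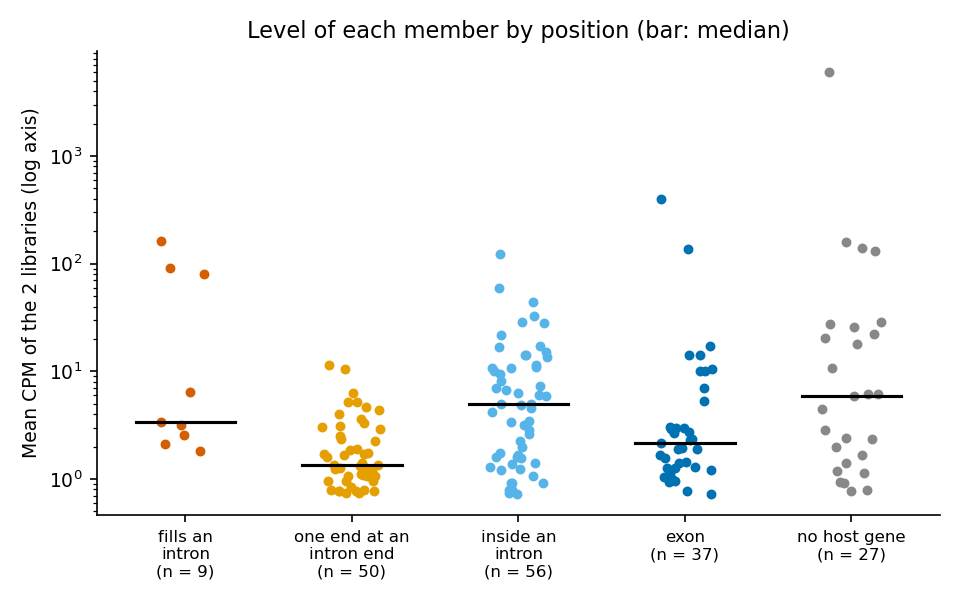
Mean CPM of both libraries for each of the 179 members (vertical log axis), by position in the host gene; black bars are medians. The 50 members at 1 intron end have the lowest median, 1.35 CPM, and those with no host the highest, 5.84 CPM.

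Within the Gm23935 family, nearly all counts were assigned to 1 copy. Gm23935 had 503 counts in replicate 1 and 372 in replicate 2, whereas the identical Gm24245 had 8 and 7 and the identical Gm24270 had 7 and 4. Gm23388, with 4 differing bases, had 11 and 16 counts, Gm24187 had 5 and 14, and Gm25911 had 4 and 9. Together the 6 hairpins had 538 and 422 counts. How reads were divided among identical copies is not given in the sources used here, so the level of each copy is uncertain. All 6 were predicted to fold with 2 loops. Of the remaining Gm-named members, 7 lay in exons, 6 of those overlapping a 5′ UTR, and Gm23450, in the coding sequence of the calcium channel subunit gene Cacng8, had 28 and 37 counts.

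Members had a higher median GC content than both other sets. Median hairpin GC was 56.7%, with quartiles of 51.9% and 65.2%, against 49.4% for the early-numbered genes and 52.5% for the same naming under 5 counts. In all, 21 members (11.7%) had 70% GC or more, against 0 early-numbered genes and 39 of the 1179 (3.31%) under 5 counts. The highest were Gm26117 at 91.6%, Mir7648, in a 5′ UTR exon of Alg10b, at 84.9%, and Mir5126, with no host, at 83.1%. Lowest were Mir6951, in an intron of the antizyme inhibitor gene Azin1, at 25.3%, Mir5101, in the coding sequence of Syne2, at 32.5%, and Mir3094, in an intron of Nfx1, at 34.4%. Counts of these 3 were 28, 14 and 11, and those of Mir7648 and Mir5126 were 15 and 128.

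GC varied with position and naming. The 14 exonic members that overlap a 5′ UTR had a median GC of 68.2%, from 39.8% for Gm24572 to 91.6% for Gm26117. Medians were 63.5% for the 9 whole-intron members, 58.0% for the 50 at 1 intron end, 53.2% inside introns and 59.0% with no host. Of the 21 members at 70% or more, 8 were exonic, 6 intronic and 7 without a host, and 5 belonged to the Gm23935 family. Hairpins were also shorter, with a median of 75 nt against 85 nt for early-numbered genes and 96 nt for the same naming under 5 counts. Predicted folding energy per base had medians of -0.43 kcal/mol for members, -0.44 for early-numbered genes and -0.34 for the last set.

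**Figure D4:**
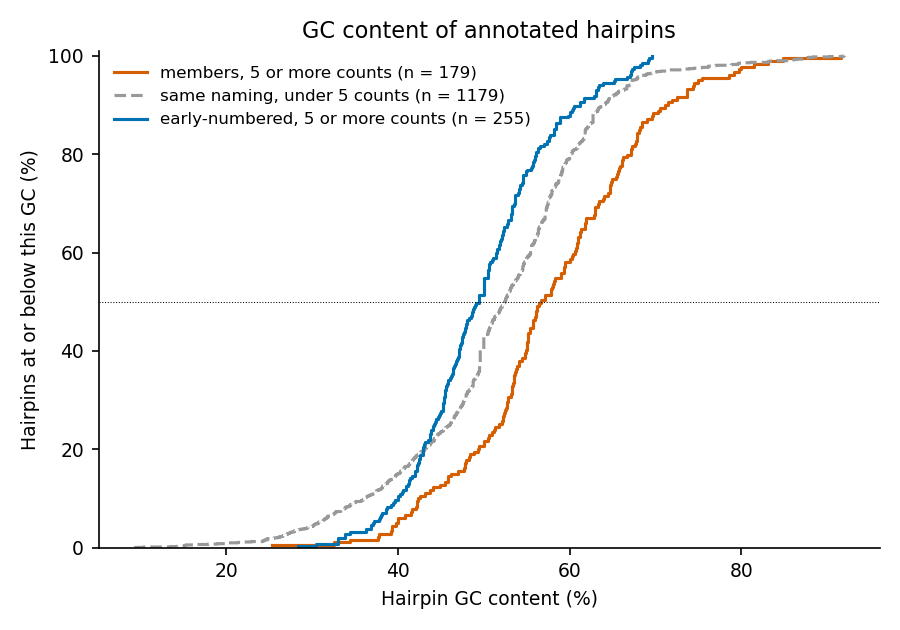
Cumulative share of hairpins (vertical axis, percent) at or below each GC content (horizontal axis, percent) for the members, the same naming under 5 counts and the early-numbered genes. The members' curve lies to the right of the others at its median, 56.7% against 52.5% and 49.4%.

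By number, symbols from 1000 to under 2000 gave 26 members of 74 listed and, through Mir1983, 80.2% of the members' counts. Numbers from 2000 to under 5000 gave 31 of 73 (42.5%) and those from 5000 to under 6000 gave 20 of 48 (41.7%). Numbers from 6000 to under 7000 gave 39 of 191 (20.4%) and those from 7000 gave 47 of 182 (25.8%), and those last 2 ranges hold 51 of the 59 members at an intron end. Gm names gave 16 of 790 (2.03%). Median GC was 52.3% to 54.1% for numbers under 6000, then 59.0% and 61.3%, and 70.5% for Gm names.

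Stretches shared with other genes marked fewer members than hairpins of the same naming under 5 counts. Using an exact stretch of 20 nt on either strand, in transcripts of genes that do not overlap the hairpin, 9 members (5.03%) matched 10 or more genes other than miRNA genes, against 520 of 1179 (44.1%) under 5 counts and 1 of the 255 early-numbered genes (0.392%). Mir8111 matched 1198 genes and had 1 and 7 counts in replicates 1 and 2. Mir1934 matched 451 genes and had 12 and 17 counts. Gm27486 matched 132 genes, Mir8112 98, Mir1191 67, Mir5128 22, Mir6236 17, Gm26117 11 and Mir7669 10. Gm27486, in a 5′ UTR exon of Sbno1, and Mir8112 also share a stretch with each other. Multimapping reads have a separate line, so a hairpin with a shared stretch could lose counts and fall under 5. The comparison with hairpins under 5 counts is thus not independent of the rule. It also differs in naming, since Gm names were 790 of the 1358 genes considered but 16 of the 179 members. Gm23935 nonetheless held 503 and 372 counts in replicates 1 and 2, though Gm24245 and Gm24270 have the same sequence. How reads from such stretches were counted is not otherwise known, and their part in these levels was not tested. Repeat annotation was not used here, and 13 members (7.26%) shared a 20-nt stretch with another miRNA gene, against 68 of 255 early-numbered genes (26.7%).

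No member shared 20 nt with the ribosomal RNA sequences searched, and neither did any hairpin of the other 2 sets. At 16 nt, Mir7669, in an intron of Ubap2l, with 5 and 4 counts, was the only member with a match, beside 1 early-numbered gene and 9 of the same naming under 5 counts. The search covered 359 annotated ribosomal RNA genes and copies, 51877 bases in all, with only 1 nuclear gene over 1 kb. The sequence of the large 28S subunit RNA was not used here, so the count of 0 covers the sequences searched only, and an origin in 28S RNA was not tested.

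Between the libraries, members with 10 or more summed counts were tested with a two-sided exact binomial test on sense counts, scaled by edgeR's TMM factors and adjusted by Benjamini-Hochberg over all 422 genes tested. That test asks whether 2 libraries of 1 group differ beyond counting error and compares no conditions. Of 119 members tested, 7 (5.88%) passed at 0.05, while 21.3% of all tested genes passed. All 7 were lower in replicate 2, where 11.8% of tested genes were lower and 9.48% higher. An unadjusted p under 0.05 was found for 14 of the 119. Of the early-numbered genes, 70 of 245 tested (28.6%) passed, with a median sum of 1224 counts over all 255 of them against 15 for all members. The median log2 ratio of replicate 2 over replicate 1 was 0.0013 for members and 0.0019 for all tested genes, and 80 of the 119 members differed by less than 1.5-fold.

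Gm26117 and Mir6538 differed far more than the other 5. Its 779 and 38 counts put Gm26117 at 264 CPM in replicate 1 against 10.99 in replicate 2. The log2 ratio was -4.58 ± 0.24 (counting SE), with an adjusted p of 1.48e-206 in the exact binomial test. Mir6538, in an intron of the ubiquitin ligase gene Rnf144a, had 665 and 72 counts, or 225 and 20.8 CPM. Its log2 ratio was -3.44 ± 0.18, with an adjusted p of 8.97e-142 in that test. Their hairpin GC was 91.6% and 75.5%. Both passed in each overdispersed form of the test, which widens the counting error by the squared deviations of all genes.

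For the other 5 the differences were smaller and depended on the error allowed. Gm23935 had 170.3 and 108 CPM, a log2 ratio of -0.68 ± 0.10, and also passed the form that takes the median of the squared deviations, with an adjusted p of 0.000298. Mir6236 had a log2 ratio of -0.34 ± 0.09. Mir6240, with 105 and 77 counts and no host, had -0.68 ± 0.22, and Mir3095, in the lysophosphatidic acid receptor gene Lpar1 with 63 and 43 counts, had -0.78 ± 0.29. Gm24572, with 30 and 13 counts, had -1.41 ± 0.48, while Mir1306 in the same gene had 0.02 ± 0.06. Mir6236, Mir6240, Mir3095 and Gm24572 passed neither overdispersed form. Median hairpin GC was 56.1% for the 7 members that passed and 55.7% for all 119 members tested. It was 56.9% for all members that did not pass, which include the 60 with too few counts to be tested. Which property of a library moved with these genes was not tested.

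**Figure D5:**
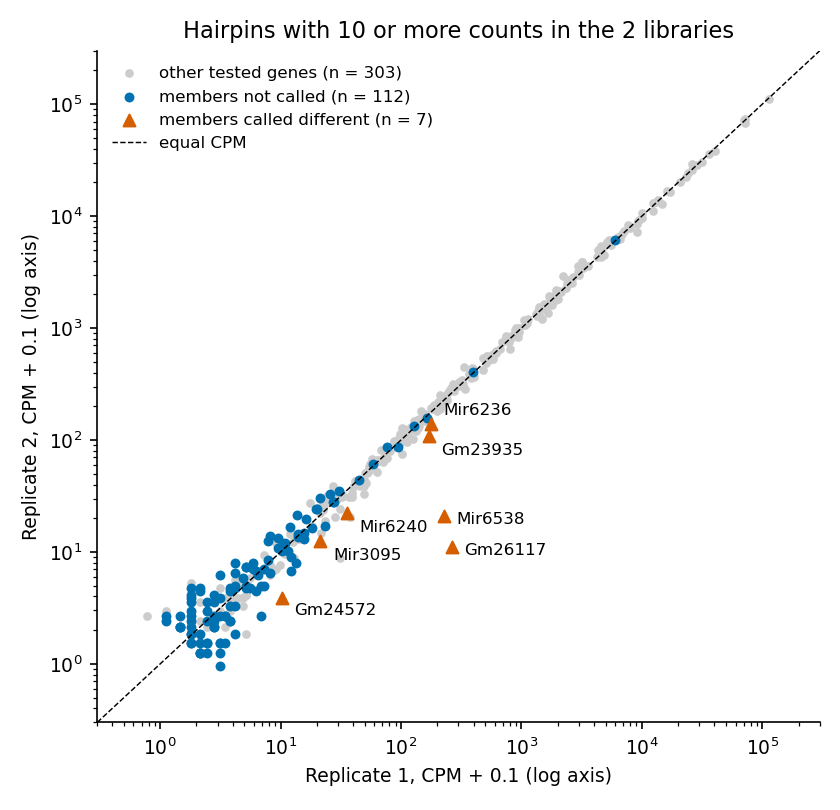
CPM plus 0.1 in replicate 1 (horizontal log axis) and replicate 2 (vertical log axis) for the 422 tested genes; triangles are the 7 members that passed the binomial test, blue circles the other 112 members and grey circles all other genes. Gm26117 and Mir6538 lie furthest below the dashed line of equal CPM.

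Mature sequences matched 156 of the 179 members, 268 in all. Among Gm-named members, Gm24572 carries miR-3618-5p and miR-3618-3p, Gm23450 carries miR-935 and Gm23363 carries miR-3154. Of those 156, 8 (5.13%) held a mature strand whose seed is also that of an early-numbered gene of the set above, against 36 of 358 (10.1%) late-numbered hairpins under 5 counts. Mir3102 shared UGAGUGG with Mir702, Mir6240 shared CAAAGCA with Mir330, Mir3475 shared AAUCAUG with Mir96, and Mir6958 shared UGGGAGA with Mir30c-1 and Mir30c-2. The others were Mir7069 with Mir18, Mir1947 with Mir674, Mir1943 with Mir149 and Mir7003 with Mir491. Seeds of all annotated mature strands of the early-numbered genes were pooled. A match can thus be to either arm, and need not be to the seed that defines the gene's family. Among members, 7 seeds were each held by 2, such as CACCCUG in the whole-intron hairpins Mir7018 and Mir7068. Since the counts do not separate the arms of a hairpin, they do not show whether the strand with a shared seed was the one sequenced.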

How the data were processed

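Per the labels, small RNA libraries were made from total RNA of limb tissue, with a stated size range below 30. The authors deposited raw read counts per miRNA gene, 1 table per library with 3 count columns, and per the files' notes these use assembly mm10 and annotation M4. Names of the aligner and counter were not given in the sources used here. The second count column was taken as sense because it held nearly all counts; this rests on the values.

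Identifiers were matched without version to GENCODE M21, for 1894 of 1973 genes; the 79 unmatched held 4 sense counts. Hairpin sequences, host genes and intron ends came from that annotation, transfer RNA genes and mature sequences from RefSeq, and loops and folding energies from RNAfold 2.7.2. Sense counts were scaled to CPM; log2 ratios used a prior count of 0.5 and TMM factors from edgeR 4.0.16 in R 4.3.3. With 1 group, edgeR's own test has no contrast. DESeq2 1.42.0 gave alternative size factors. Python 3.11.15 with numpy 2.4.6, pandas 2.3.3 and scipy 1.17.1 did the rest. The library test was tested on simulated counts with counting error only, so that check does not cover further spread between libraries.

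The members, marker list and tests were chosen with earlier results of these data known. Named genes are the 20 most abundant members, those that passed the library test or had a ribosomal RNA match, the 3 highest and 3 lowest in GC, and genes with 5 or 4 summed counts; others were named after their values were seen. Masked repeats, and GC with 50 bases on each side of the hairpin, need a genome sequence and were not analysed here.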

Additional observations from a re-analysis of the deposited data

Results flagged for a closer look

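The opposite-strand column entered no comparison above. It held 17 counts in replicate 1 and 10 in replicate 2 over all members, and 10 members had any. In contrast, the hairpins of the same naming under 5 sense counts held 30360 and 34313 opposite-strand counts in replicates 1 and 2. Their sense counts were 165 and 168, so that set is low on the sense strand only. Gm23134, in an intron of Blcap and opposite the imprinted gene Nnat, had 6 opposite-strand counts in replicate 1 and 2 in replicate 2, beside 19 and 21 sense counts. Mir7654, in the coding sequence of Arglu1, had 6 and 3 opposite-strand counts beside 39 and 27 sense counts. Both reached more in replicate 1 than the 3 counts that a count of 0 allows, and no other member had more than 2 in a library.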

How the results depend on the processing

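Of 35 alternatives to 8 results, 22 kept the value within its error or, for counts, within 1.5 times, and 13 moved it. Some of the 22 could not have moved, so the tally is no measure of stability. Leaving out 1 of 2 libraries always keeps the share within its SD, and a 30-nt ribosomal match needs a 20-nt match. For the median log2 ratio, the error was the median counting SE of single members, not that of a median. No alternative turned a called direction. The median log2 ratio, which had no test, was -0.00050 under DESeq2 size factors and at most 0.020. A minimum of 10 summed counts gave 119 members and a minimum of 2 gave 272, and each library alone gave 124 to 130. The members' share was 0.382% of all reads and, without Mir1983, 0.237% ± 0.037 of sense counts, and 0.818% to 0.864% in single libraries. The library test gave 7 members under total counts, DESeq2 size factors and a minimum of 5 counts. It gave 3 in the overdispersed form with the median squared deviation and 2 with the mean. Median GC was 55.7% with 10 or more counts and 56.01% to 56.2% with a library left out. Members at an intron end numbered 32 with 10 or more counts and 33 to 37 with a library left out, as fewer members then remain; hosted members were 104 to 109. A ribosomal RNA stretch of 16 nt gave 1 member. No paired analysis was possible because there is only 1 group. Alternatives with masked repeats and with 50 bases around each hairpin were not run. Depth limits most levels, since the median member had 15 summed counts.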
